A study of Mus musculus with 179 samples.

Results

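The 8 genes described here mark cells of the oligodendrocyte lineage. They are Pdgfra, Cspg4, Gpr17 and C1ql1, used as markers of oligodendrocyte precursors, the lineage transcription factors Olig1, Olig2 and Sox10, and Enpp6, a marker of newly formed oligodendrocytes. They were chosen by name and matched by gene symbol or Ensembl identifier in 3 expression tables of adult mouse brain that hold 37810, 32421 and 16239 genes. All 8 were found in the first and second of these tables. The third, which covers the male nucleus accumbens, held 6 of them, and Cspg4 and Gpr17 were not analysed there.

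Oligodendrocyte precursors are dividing glia that stay spread through the adult brain and can leave the cell cycle to become myelin-forming oligodendrocytes. They divide in response to platelet-derived growth factor, which signals through the receptor that Pdgfra encodes. Cells that commit to differentiation pass through a stage marked by the receptor Gpr17 and then by Enpp6, while Olig1, Olig2 and Sox10 are used by precursors and by mature oligodendrocytes alike. A level in bulk tissue therefore sums over stages, and fewer cells of a type cannot be told apart from less RNA per cell.

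The study crossed early life stress (ELS) of pups with a second stress in adulthood and sequenced RNA of brain punches taken 24 h after behavioural testing. In males the adult stress was chronic social defeat, repeated exposure to an aggressive mouse, and in females a brief run of varied stressors, sub-threshold variable stress (STVS). All mice were adult, of strain C57BL/6 for the male ventral tegmental area (VTA) and C57Bl6/j for every other set of libraries. The male VTA had 6 ELS defeat, 6 standard defeat, 4 ELS control and 4 standard control libraries, with no ELS window in its labels. In the male nucleus accumbens (NAc), ELS on postnatal days 10 to 20 (P10-20) gave 6 defeat and 4 control libraries, and ELS on days 2 to 12 (P2-12) gave 5 defeat and 4 control libraries. That region also had 6 standard defeat and 4 standard control libraries. Male prefrontal cortex (PFC) and male hippocampus (HIP) had 6 libraries of each of ELS P10-20 with defeat, standard rearing with defeat, ELS P10-20 without defeat and standard rearing without defeat. The female VTA, NAc and PFC each had 6 ELS P10-20 STVS, 5 standard STVS, 5 ELS P10-20 control and 6 standard control libraries. Each male VTA and male NAc library pooled punches of 3 mice, and each other library came from 1 mouse. Males and females came from separate cohorts with different adult stressors, so sex, cohort and stressor cannot be told apart.

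The libraries outside the male VTA held between 13.6 M and 42.7 M recovered reads, and the RPKM values of the male VTA keep no depth. By levels of Xist, Ddx3y and Ttr, the last the main transcript of the choroid plexus, 14 of the 163 RNA libraries were doubted. Among them were 3 of the 6 male HIP standard controls, 1 male HIP ELS control and 2 male HIP ELS defeat libraries, all with more than 10000 normalised reads of Ttr. Ttr was not used for male NAc, and its cutoff could not be applied to the RPKM of the male VTA. In male NAc, ELS P10-20 defeat replicate 4 had a summed level of 4 choroid markers of 1798 normalised reads, against a highest of 41.9 in the other libraries of its group, and was not counted as doubted. Where leaving out the doubted libraries changed the call of a member value described here at an unadjusted p under 0.05, this is stated. Stress values above that p with all libraries are not given without the doubted ones.

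Promoter windows show where members of the list differ in DNA near their start sites. Whether this DNA bears on levels by region was not tested, and Gpr17, Olig1, Sox10 and C1ql1 had no window. RefSeq windows of 300 bases (250 before and 50 after a transcript start, GRCm38.p6, plus strand for all) were at hand for 4 of the 8 genes. Each was searched on both strands for the E-box CANNTG, the letters read by basic helix-loop-helix factors such as Olig1 and Olig2, and for ACAAAG or ACAATG, letters read by SOX factors, with no overlap between the 2 in these windows. Capitals mark those letters, and a SOX match on the minus strand appears as its reverse complement. The E-box letters occur in 72.3% and the SOX letters in 28.6% of all 32851 windows. Pdgfra (chr5:75152001-75152300) held 2 E-box matches and 0 SOX matches. Cspg4 (chr9:56864854-56865153) held 0 of either. Olig2 (chr16:91225300-91225599) and Enpp6 (chr8:46986637-46986936) each held 0 E-box matches and 1 SOX match. The Pdgfra and Enpp6 windows lie inside the annotated spans of their genes, at the start the table uses.
Pdgfra: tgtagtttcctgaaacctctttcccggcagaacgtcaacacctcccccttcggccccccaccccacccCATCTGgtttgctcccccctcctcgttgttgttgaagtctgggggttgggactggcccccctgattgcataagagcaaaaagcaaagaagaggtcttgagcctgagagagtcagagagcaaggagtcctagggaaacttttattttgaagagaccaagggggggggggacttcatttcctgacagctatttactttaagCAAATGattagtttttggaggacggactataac
Cspg4: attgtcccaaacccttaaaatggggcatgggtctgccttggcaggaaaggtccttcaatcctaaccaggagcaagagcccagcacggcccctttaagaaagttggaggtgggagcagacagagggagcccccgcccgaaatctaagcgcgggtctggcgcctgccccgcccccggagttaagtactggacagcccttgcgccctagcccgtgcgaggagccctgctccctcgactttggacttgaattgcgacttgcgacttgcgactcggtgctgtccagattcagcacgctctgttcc
Olig2: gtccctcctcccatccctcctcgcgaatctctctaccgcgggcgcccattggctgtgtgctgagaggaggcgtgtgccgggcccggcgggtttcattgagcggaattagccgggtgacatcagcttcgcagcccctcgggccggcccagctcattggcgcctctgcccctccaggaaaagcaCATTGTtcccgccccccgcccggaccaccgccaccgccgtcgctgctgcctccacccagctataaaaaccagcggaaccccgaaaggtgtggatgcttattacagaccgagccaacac
Enpp6: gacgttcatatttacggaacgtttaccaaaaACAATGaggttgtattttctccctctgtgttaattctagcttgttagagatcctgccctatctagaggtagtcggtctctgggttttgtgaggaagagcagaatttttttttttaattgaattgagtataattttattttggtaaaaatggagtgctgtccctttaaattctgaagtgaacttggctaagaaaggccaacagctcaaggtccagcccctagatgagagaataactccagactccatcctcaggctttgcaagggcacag

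Levels of different genes can be compared per length only in the male VTA, whose values are reads scaled to transcript length and library size (RPKM). Over its 20 libraries Olig1 was highest at 101.8 ± 7.6 RPKM (mean ± SD), with a range of 86.3 to 115.4. Sox10 followed at 36.6 ± 4.3 RPKM, C1ql1 at 24.9 ± 5.3 RPKM and Olig2 at 22.0 ± 1.6 RPKM. The 3 transcription factors among them are shared along the lineage, and C1ql1 encodes a secreted protein of the C1q family that some neurons also make. Gpr17, a G protein-coupled receptor of precursors about to differentiate, averaged 12.4 ± 1.7 RPKM, and Pdgfra averaged 10.6 ± 0.8 RPKM. Enpp6, an enzyme that cleaves choline-containing lipids, averaged 5.16 ± 1.02 RPKM. Cspg4, the NG2 proteoglycan that pericytes also make, was lowest at 3.68 ± 0.29 RPKM. In this order the ranges did not overlap between Olig1 and Sox10, between Olig2 and Gpr17 or between Pdgfra and Enpp6. The other neighbours overlapped. C1ql1 varied most between VTA libraries relative to its mean, with a coefficient of variation of 21.4%, against 7.46% for Olig1 and 7.54% for Pdgfra.

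**Figure D1:**
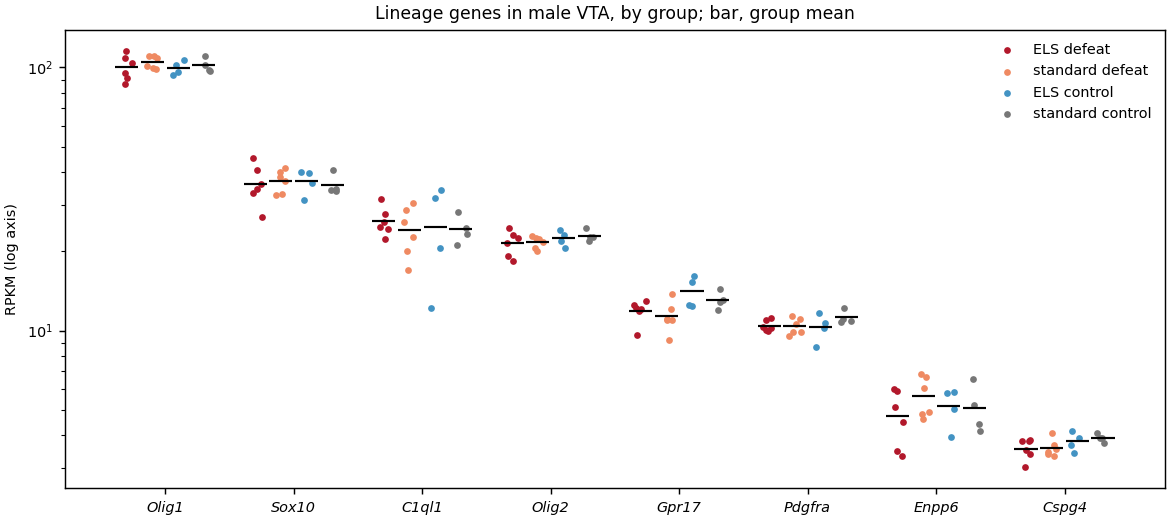
RPKM (log axis) of the 8 genes in each of the 20 male VTA libraries, coloured by group, with group means as bars and genes ordered by overall mean. The groups lie over each other for most genes, and Olig1, at 86.3 to 115.4 RPKM, stands above all others.

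Regions were compared within the table that holds 5 sets of libraries normalised together, with 22 libraries in each female region and 24 in each male region. The comparison asks how the lineage genes are spread over the regions of the stress study. Of the 4 precursor markers, Pdgfra, Cspg4 and Gpr17 differed by less than 0.5 on the log2 scale between the female regions. The fourth, C1ql1, was far higher in VTA, as were Olig1, Olig2, Sox10 and Enpp6. All 8 passed an adjusted p of 0.05 in limma for VTA against PFC, but so did 88.7% of the 14000 genes tested, so the sizes carry the description.

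Pdgfra lay at 1910, 2298 and 2452 normalised reads (lowest, median, highest) for female VTA, at 1788, 2004 and 2570 for female NAc and at 1521, 1750 and 2259 for female PFC. The 3 ranges overlap. The log2 fold change was 0.34 ± 0.03 (SE) for VTA against PFC (adjusted p = 2.04e-14) and 0.23 ± 0.03 for NAc against PFC (adjusted p = 1.38e-08). For Cspg4 the VTA libraries ran from 930.1 to 1191 normalised reads, those of NAc from 690.1 to 1007 and those of PFC from 636.7 to 1013. For Cspg4 the log2 fold change was 0.45 ± 0.04 for VTA against PFC and 0.09 ± 0.04 for NAc against PFC (adjusted p = 0.042). The second of these was lost under quantile normalisation and kept an unadjusted p under 0.05 in 30 of 44 fits without 1 library, with a highest p of 0.082 without female PFC standard STVS replicate 2. Gpr17 averaged 1908 ± 144 normalised reads for VTA, 1914 ± 224 for NAc and 1547 ± 162 for PFC. For VTA against NAc the difference of Gpr17 was -0.00 ± 0.04 on the log2 scale (adjusted p = 0.991), and it was the only 1 of the 8 genes short of the threshold there, where 89.5% of genes passed.

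The lineage transcription factors overlapped neither between VTA and PFC nor between VTA and NAc. The share of all genes without overlap was not counted. Olig1 lay at 6467, 7511 and 9100 normalised reads (lowest, median, highest) for VTA, at 2688, 3577 and 4797 for NAc and at 1879, 2209 and 2742 for PFC. Olig1 had a log2 fold change of 1.74 ± 0.05 for VTA against PFC (adjusted p = 2.57e-39). Olig2 averaged 1597 ± 145 normalised reads for VTA, 833.8 ± 133.2 for NAc and 524.3 ± 62.9 for PFC. The Olig2 log2 fold change of 1.61 ± 0.05 for VTA against PFC was close to that of Olig1, its neighbour on chromosome 16. Sox10, which is kept on through myelination, reached 3463 ± 360 normalised reads for VTA, 1570 ± 229 for NAc and 772.6 ± 158.7 for PFC. Its log2 fold change for VTA against PFC was 2.18 ± 0.06 (adjusted p = 9.36e-41), and 3.06% of the genes tested had a larger one.

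Enpp6 and C1ql1 had the largest regional differences of the list. Enpp6 lay at 534.0, 723.9 and 1286 normalised reads (lowest, median, highest) for VTA, at 159.2, 238.5 and 351.0 for NAc and at 51.9, 78.9 and 161.9 for PFC. Its log2 fold change was 3.16 ± 0.10 for VTA against PFC (adjusted p = 9.38e-37), exceeded by 1.38% of genes, and 1.47 ± 0.10 for NAc against PFC. C1ql1 lay at 457.2, 1179 and 2077 normalised reads (lowest, median, highest) for VTA, at 160.2, 231.6 and 310.5 for NAc and at 153.9, 182.3 and 234.1 for PFC. The VTA stood apart from both other regions, which overlap each other. Its log2 fold change was 2.67 ± 0.10 for VTA against PFC (adjusted p = 4.00e-33) but 0.32 ± 0.10 for NAc against PFC (adjusted p = 0.0025). For NAc against PFC all 8 genes passed the threshold, as did 83.9% of all genes.

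In males, 6 of the 8 genes passed the threshold for HIP against PFC, all higher in HIP, where 71.2% of all genes passed. Pdgfra averaged 2441 ± 289 normalised reads in HIP and 1857 ± 139 in PFC, with a log2 fold change of 0.39 ± 0.04 (adjusted p = 9.53e-12). Its libraries did not overlap, with a lowest of 2067 in HIP and a highest of 2065 in PFC. How many of all genes separate in this way was not counted. C1ql1 averaged 275.1 ± 42.5 normalised reads in HIP and 188.2 ± 33.8 in PFC, a log2 fold change of 0.55 ± 0.06. Olig1, Cspg4, Olig2 and Sox10 had log2 fold changes of 0.36, 0.30, 0.29 and 0.28. Without the doubted libraries the value of Sox10 was 0.16, with an unadjusted p of 0.062. Gpr17 at 0.04 ± 0.04 (adjusted p = 0.441) and Enpp6 at -0.16 ± 0.16 (adjusted p = 0.35) did not pass, though Enpp6 had -0.40 with an unadjusted p of 0.018 without the doubted libraries. Enpp6 lay between 33.1 and 222.6 normalised reads in HIP and between 62.8 and 195.9 in PFC, the widest spread of any of the 8 genes within a region. In the separately normalised male NAc table, Olig1 averaged 3482 ± 357, Pdgfra 2217 ± 136, Sox10 1722 ± 191, Olig2 842.4 ± 76.2, Enpp6 284.5 ± 36.3 and C1ql1 256.8 ± 32.9 normalised reads over 29 libraries.

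**Figure D2:**
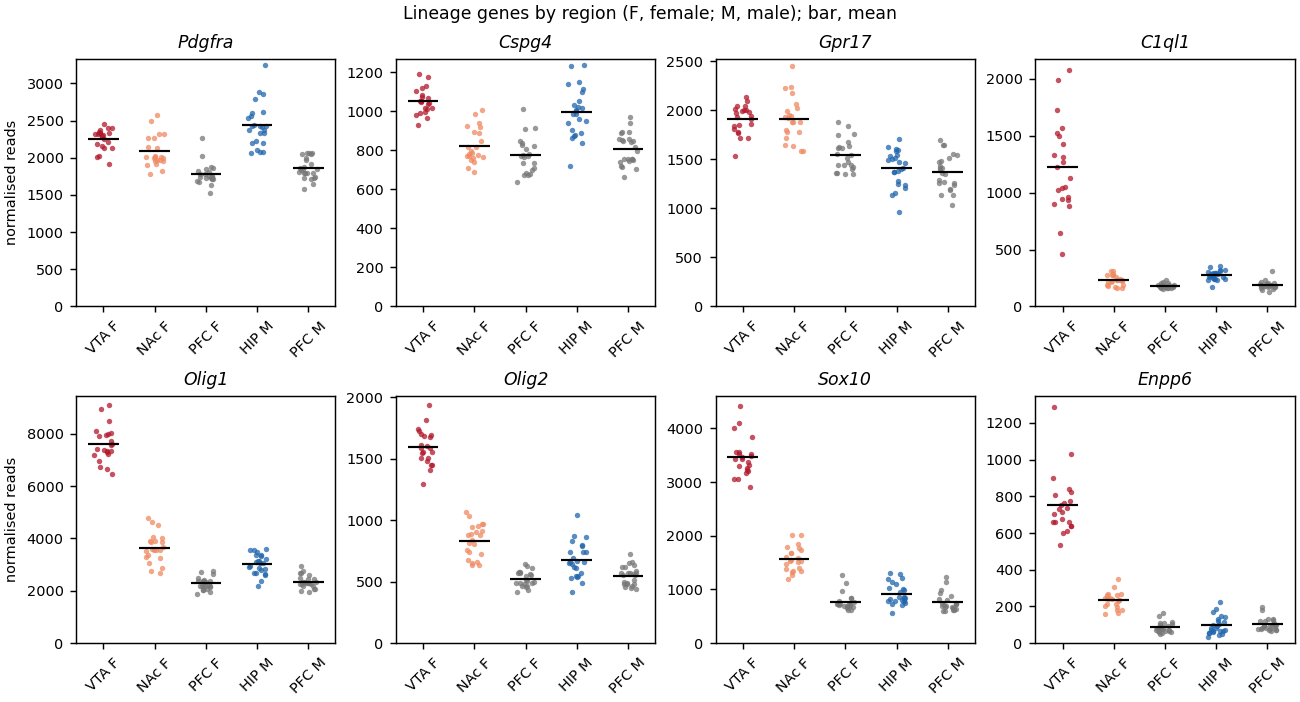
Normalised reads of each gene in every library of the 5 sets normalised together (22 libraries per female region, 24 per male region), with the mean as a bar and each axis starting at 0. Olig1, Olig2, Sox10, C1ql1 and Enpp6 in female VTA lie above every NAc and PFC library, while Pdgfra, Cspg4 and Gpr17 overlap between the female regions.

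The uneven spread was also seen within libraries, as the ratio of each gene to Pdgfra in the same library, a scale on which the normalisation of the library cancels. Olig1 stood at 3.40 ± 0.37 times Pdgfra for female VTA, 1.76 ± 0.29 times for NAc and 1.28 ± 0.12 times for PFC (reads per gene, not per length). Sox10 stood at 1.54 ± 0.17 times Pdgfra for VTA, 0.757 ± 0.108 times for NAc and 0.436 ± 0.093 times for PFC. For Olig1, Olig2, Sox10, C1ql1 and Enpp6 the ratios in VTA overlapped with neither NAc nor PFC. Each had an adjusted p of 1.7e-05 in a two-sided permutation test, the smallest its 100000 resamples can give over 28 comparisons. Ratios of genes outside the list were not formed. The Gpr17 ratio differed less, at 0.848 ± 0.048 for VTA, 0.92 ± 0.085 for NAc and 0.87 ± 0.072 for PFC (VTA against PFC, adjusted permutation p = 0.29). It was lower in VTA than in NAc by a log2 difference of -0.11 (adjusted permutation p = 0.0013) and higher in NAc than in PFC by 0.08 (adjusted permutation p = 0.047). In males Gpr17 stood at 0.583 ± 0.093 times Pdgfra in HIP and 0.743 ± 0.108 times in PFC (adjusted permutation p = 1.7e-05).

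Other genes of the lineage split in the same comparison by stage. For VTA against PFC, all 16 genes of a myelin list were higher, with a median log2 fold change of 3.25 against 0.01 over all genes, of which 44.9% were higher and 43.8% lower at an adjusted p under 0.05. Gjb1, a gap junction protein of myelin, had a log2 fold change of 4.08, and Hapln2, a link protein at nodes of Ranvier, 3.85. Of 15 genes of newly formed oligodendrocytes 11 were higher and 4 lower (median 1.02), led by the adaptor Plekhb1 at 2.58 and by Myrf, the transcription factor that starts the myelin programme, at 3.06. Of 14 tested genes of a further precursor list 5 were higher and 7 lower, with a median of -0.04. Among them the retinoid-binding protein Rlbp1 had -1.31 and the matrix protein Tnr -0.68. The 8 genes themselves had a median of 1.68. Of 23 tested ligands, receptors and regulators of the lineage 11 were higher and 11 lower, with Lingo1 at -2.61 and the muscarinic receptor Chrm1 at -5.06, both of which neurons also make. Pericyte markers, which matter for Cspg4, were higher for 9 of 10 genes (median 0.68, Notch3 1.27, Abcc9 0.94). Fibroblast markers, which matter for Pdgfra, were higher for 5 of 8 and lower for 2 (median 0.65, Dcn 1.65, Col3a1 1.67). For HIP against PFC, fibroblast markers were higher for 6 of 8 genes (Dcn 3.38, Lum 1.76) and choroid markers for 8 of 8 (Kl 3.30, Sostdc1 3.47), beside 11 of 15 genes of newly formed oligodendrocytes and 2 of 16 myelin genes, against 36.9% of all genes. The part of other cells in the levels of Cspg4, Pdgfra and C1ql1 was not tested.

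Within groups, the members followed different companions from library to library. Deviations of each gene from its group mean were correlated within each of the 7 region and sex sets, over 20 to 29 libraries, in 237 relations with 100000 permutations each. Sox10 varied with the mean of the myelin list in 7 of 7 sets, with Pearson r between 0.666 and 0.962 (median 0.907; Spearman rho median 0.872; highest adjusted permutation p = 0.0026). Enpp6 did so in 7 of 7 sets (median r 0.86, median rho 0.859), Olig1 in 6 of 7 (median r 0.819, median rho 0.77) and Olig2 in 6 of 7 (median r 0.638, median rho 0.67). Without the 2 libraries farthest from the median, the lowest r over the sets was 0.714 for Sox10, 0.683 for Enpp6, 0.181 for Olig1 and 0.428 for Olig2. Pdgfra followed the myelin list in 0 of 7 sets (r from -0.428 to 0.413, median -0.02, median rho 0.0028). Gpr17 followed it by r in 1 of 6 sets, female NAc (r = 0.665, adjusted permutation p = 0.018), where its rho of 0.509 did not pass (adjusted permutation p = 0.104). By r, Cspg4 and C1ql1 passed in 1 set each, with the opposite sign. In male HIP, Cspg4 went against the myelin list (r = -0.558, rho = -0.541, adjusted permutation p = 0.027 for r). In female PFC, C1ql1 did (r = -0.613, rho = -0.648, adjusted permutation p = 0.017 for r). In female NAc, C1ql1 went with the list by rho (0.574, adjusted permutation p = 0.045). Its r of 0.551 did not pass there (adjusted permutation p = 0.059).

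Between the members, 57 of 183 relations passed an adjusted permutation p of 0.05. By Pearson r 3 pairs passed in 7 of 7 sets, Olig1 with Sox10 (median r 0.819, median rho 0.814), Sox10 with Enpp6 (median r 0.812, median rho 0.797) and Olig1 with Olig2 (median r 0.797, median rho 0.737). By Spearman rho the first and the second of these pairs passed in 6 sets, and Olig1 with Olig2 in 7. Pdgfra and Gpr17, both precursor receptors, passed in 3 of 6 sets (median r 0.531, median rho 0.468). Pdgfra passed in 0 of 7 sets with Sox10 and in 0 of 7 with Enpp6. These libraries share dissection and normalisation, so the relations describe libraries and not cells. Genes tested in all sets numbered 7412, with members among them. Outside the list, the deviations of Gab1 (median r 0.807) and Gna12 (0.804) most resembled the mean of the members. Gab1 is an adaptor of receptor tyrosine kinases and Gna12 a G protein subunit. Next came Cdc42ep1 (0.777), the myelin enzyme Cnp (0.773) and Tmcc3 (0.769), over 163 libraries.

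**Figure D3:**
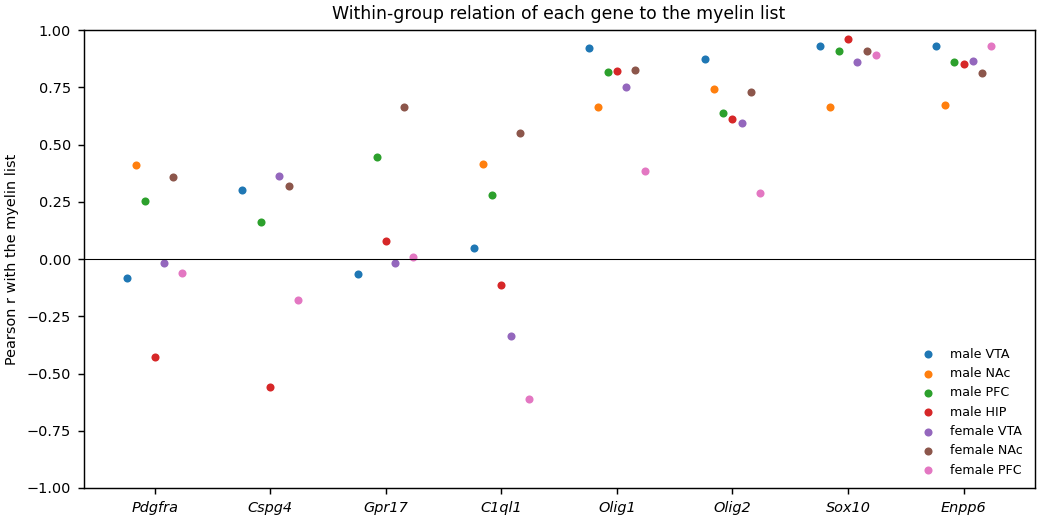
Pearson r between each gene and the mean of the myelin list over libraries, as deviations from group means, with 1 point for each of the 7 region and sex sets (6 for Cspg4 and Gpr17). Sox10 and Enpp6 lie at or above 0.666 in every set, while Pdgfra runs from -0.428 to 0.413.

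PFC is the 1 region that both sexes have in the same table, and there its standard controls were compared, 6 female against 6 male libraries. None of the 8 genes passed an adjusted p of 0.05 in limma, where 0.114% of all genes did. At an unadjusted p under 0.05, 2 of the 8 differed, against 6.84% of all genes. Olig2 had a lowest, median and highest level of 434.3, 486.8 and 582.2 normalised reads in females and of 447.1, 592.7 and 722.6 in males (log2 fold change -0.23 ± 0.10, adjusted p = 0.684). Enpp6 had 70.6, 84.2 and 109.3 normalised reads in females and 75.1, 100.6 and 195.9 in males (log2 fold change -0.45 ± 0.21, adjusted p = 0.728). The groups overlap for both genes. Without the doubted libraries the value of Olig2 had an unadjusted p of 0.097, that of Enpp6 was -0.66 and that of Sox10 was -0.39 with a p of 0.029.

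The stress comparisons ask whether ELS, adult stress or both together shift the lineage genes within a region and sex. None of the 8 genes passed an adjusted p of 0.05 in any of 41 such comparisons by limma, and the share of all genes that did was 0%. On recovered reads, which the male VTA lacks, edgeR passed 0 member values and DESeq2 1. At an unadjusted p under 0.05, 25 of 306 member values (8.17%) differed, 15 lower and 10 higher, against 6.27% over all genes. These fell in 15 comparisons. The other 26 held no member at an unadjusted p under 0.05, and there 5.15% of all genes had one. Some of these absences depended on single libraries. When 1 library was left out, ELS alone in female NAc held up to 3 members at that p. The interaction of ELS and STVS in female PFC held 0 in every such fit. By gene, Gpr17 had 5 such values in 30 comparisons, Olig1, Olig2, Sox10 and C1ql1 had 4 each in 41, Pdgfra had 3 in 41, Cspg4 had 1 in 30 and Enpp6 had 0 in 41. The comparisons of a region share their groups, so these counts are not independent, and a p above the threshold does not show that levels were equal.

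**Figure D4:**
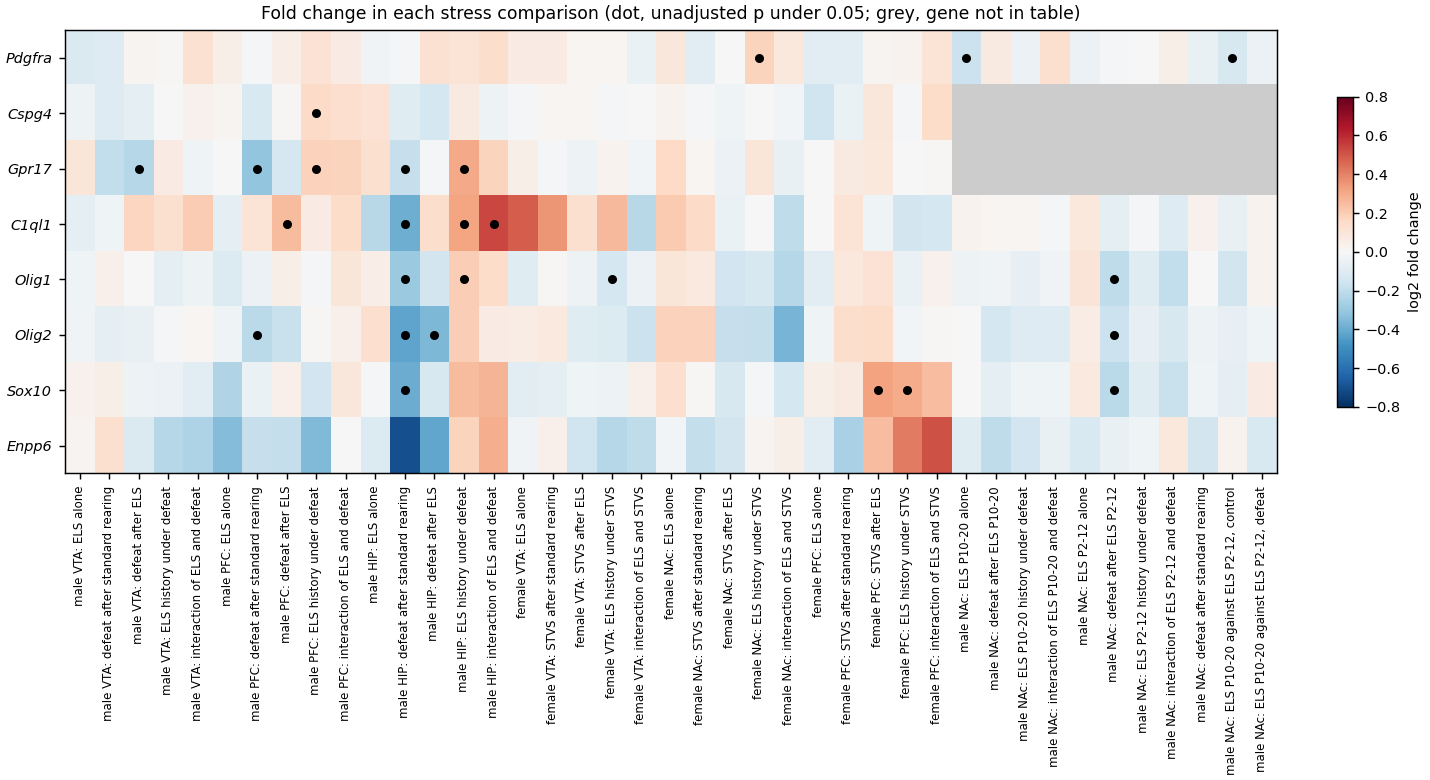
Log2 fold change of each gene in each of the 41 stress comparisons (colour, blue lower and red higher), with a dot where the unadjusted p was under 0.05 and grey where the gene was not in the table. The most dots in 1 column, 5 of 8, stand at defeat after standard rearing in male HIP.

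In male HIP, defeat after standard rearing was set against standard controls, and all 8 genes lay below 0. Of these, 5 had an unadjusted p under 0.05, against 14.4% of all genes in either direction and 8.85% in the lower one. None passed adjustment in limma or edgeR. The share of all genes below 0 at any p was not counted. DESeq2 passed Olig1 (adjusted p = 0.0499) among 162 of 14000 genes. Olig1 had a lowest, median and highest level of 2165, 2622 and 3042 normalised reads in defeated mice and of 2814, 3144 and 3600 in controls. The log2 fold change of Olig1 was -0.30 ± 0.08 (adjusted p = 0.287), and the groups overlap between 2814 and 3042. Olig2 averaged 548.8 ± 108.0 normalised reads in defeated mice and 730.4 ± 92.0 in controls, a log2 fold change of -0.42 ± 0.13 (adjusted p = 0.287). Sox10 averaged 760.2 ± 101.8 normalised reads in defeated mice and 1008 ± 187 in controls (log2 fold change -0.40 ± 0.15, adjusted p = 0.311).

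In that comparison C1ql1 had 166.8, 244.5 and 267.5 normalised reads (lowest, median, highest) in defeated mice. Controls had 285.1, 295.7 and 356.8. These groups did not overlap, but how many of all genes separate in this way was not counted. For C1ql1 the log2 fold change was -0.39 ± 0.11 (adjusted p = 0.287). Gpr17 averaged 1226 ± 182 normalised reads in defeated mice and 1390 ± 147 in controls (-0.19 ± 0.09). Enpp6 had the value farthest from 0, -0.70 ± 0.37, with 44.5, 53.1 and 143.7 normalised reads in defeated mice and 79.2, 100.9 and 222.6 in controls. Pdgfra at -0.01 ± 0.09 and Cspg4 at -0.10 ± 0.10 averaged 2396 ± 290 and 932.3 ± 125.2 normalised reads in defeated mice, against 2407 ± 130 and 991.3 ± 76.9 in controls.

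Markers of other cells were compared between the same HIP groups. The share of all genes above or below 0 was not counted. The summed level of 8 choroid plexus markers ran from 365.0 to 904.6 normalised reads in defeated mice and from 473.5 to 280244 in controls, with a median of 95631. Of its genes 5 of 8 were lower at an unadjusted p under 0.05 (Sostdc1 -2.72, Folr1 -4.81), and the 3 doubted controls were the ones rich in Ttr. Folr1 and Kcnj13 of that list were at 0 in at least 1 HIP library. Without the 6 doubted HIP libraries, 4 of the 8 genes had an unadjusted p under 0.05 (Olig1 -0.20, Olig2 -0.33, C1ql1 -0.32, Gpr17 -0.26), Sox10 had -0.22 with an unadjusted p of 0.181, and 404 of 14000 genes had an unadjusted p under 0.05. The 16 myelin genes all lay below 0, with a median log2 fold change of -0.61 and 1 at an unadjusted p under 0.05 (Trf -0.88, Ermn -0.79). Their summed level ran from 32770 to 78711 normalised reads in defeated mice and from 53836 to 155246 in controls. With the myelin mean of each library as a covariate, Olig1 had -0.19, Olig2 -0.29, Sox10 -0.15 and C1ql1 -0.41, each still at an unadjusted p under 0.05, and Gpr17 had -0.18 with a p of 0.08. Pericyte markers lay above 0 for 9 of 10 genes (median 0.20, Acta2 1.12, Tagln 1.16) and fibroblast markers for 6 of 8 (median 0.82, Col6a3 0.75, Slc6a13 1.45). Their summed levels ran from 9256 to 15160 and from 3338 to 18396 normalised reads in defeated mice, against 7942 to 11132 and 6644 to 16380 in controls. For both lists these ranges overlap. Astrocyte markers lay above 0 for 10 of 10 genes (median 0.17, Slc1a2 0.26, Gjb6 0.46). The part of pericytes, fibroblasts and astrocytes in the members' values was not tested.

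Other lineage genes in that comparison were mixed. Of 14 further precursor genes 7 lay above and 7 below 0 (median -0.03), with 1 at an unadjusted p under 0.05, the adhesion molecule Dscam at 0.21, and Rlbp1 at -0.21. Of 15 genes of newly formed oligodendrocytes 10 lay below 0, with 2 at an unadjusted p under 0.05, the deacetylase Sirt2 at -0.19 and the sialidase Neu4 at -0.22. Of 24 ligands, receptors and regulators 3 were higher and 3 lower at that p. The growth factor Igf1 had 0.47, and Pdgfa, which encodes the ligand of the Pdgfra receptor, had -0.19. None of these passed adjustment.

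**Figure D5:**
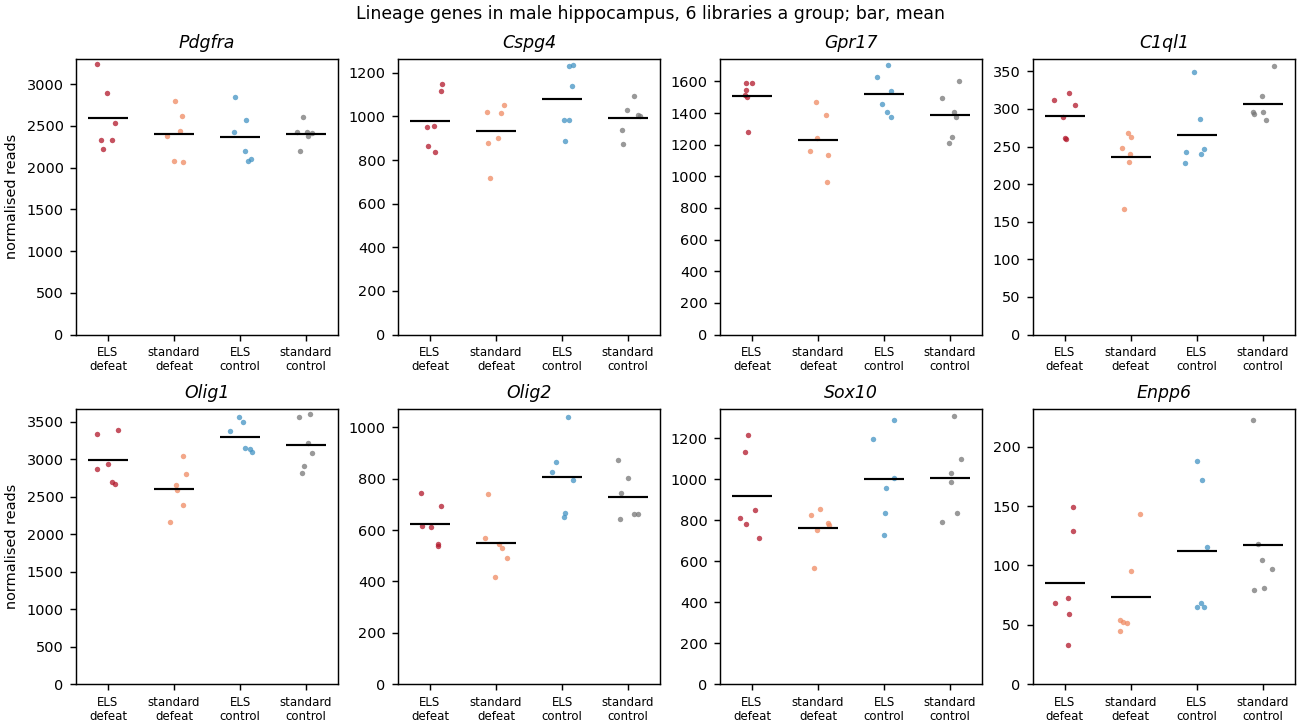
Normalised reads of each gene in the 24 male HIP libraries by group (6 libraries each, bar for the mean, axes from 0). Standard defeat lies lowest on average for 7 of the 8 genes. C1ql1 reaches up to 267.5 in standard defeat and starts from 285.1 in standard control.

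HIP of mice with ELS was compared in the same way. For defeat after ELS against ELS controls, 1 of the 8 genes had an unadjusted p under 0.05, against 7.88% of all genes. It was Olig2, with 537.7, 613.2 and 744.6 normalised reads as lowest, median and highest in ELS defeat and 651.6, 810.4 and 1041 in ELS control (log2 fold change -0.36 ± 0.13, adjusted p = 0.455). Pdgfra had 0.12 ± 0.09 and C1ql1 0.14 ± 0.11 there. Defeated mice with ELS were then set against defeated mice with standard rearing. All 8 genes lay above 0, and the share of all genes above 0 was not counted. Of the 8 genes, 3 had an unadjusted p under 0.05, against 2.89% of all genes in either direction and 1.52% in the higher one. Gpr17 averaged 1505 ± 115 normalised reads with ELS and 1226 ± 182 without (log2 fold change 0.30 ± 0.09). C1ql1 averaged 291.2 ± 25.9 normalised reads with ELS and 236.1 ± 36.7 without (0.31 ± 0.11), and Olig1 averaged 2981 ± 310 and 2607 ± 307 (0.20 ± 0.08), each with an adjusted p of 0.958. The groups overlap for all 3 genes. Without doubted libraries Olig1 had 0.11 with an unadjusted p of 0.196.

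The interaction of ELS and defeat in HIP, the log2 fold change of defeat after ELS minus that after standard rearing, was 0.53 ± 0.15 for C1ql1, with an unadjusted p of 0.0022 and an adjusted p of 0.368. It was the 1 of 8 genes at an unadjusted p under 0.05, against 11.8% of all genes. Without doubted libraries the interaction of C1ql1 was 0.58. ELS alone gave C1ql1 values of 228.3, 244.5 and 349.8 normalised reads in ELS control against 285.1, 295.7 and 356.8 in standard control (-0.22 ± 0.11).

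In male PFC, Gpr17 had the smallest unadjusted p of any member in a stress comparison, 0.00042 for defeat after standard rearing. Its lowest, median and highest levels were 1031, 1169 and 1362 normalised reads in defeated mice and 1237, 1534 and 1652 in controls, ranges that overlap. The log2 fold change was -0.31 ± 0.08 (adjusted p = 0.995). Olig2 had 463.8, 483.3 and 586.0 normalised reads in defeated mice and 447.1, 592.7 and 722.6 in controls (-0.22 ± 0.10). So 2 of 8 genes had an unadjusted p under 0.05, against 3.35% of all genes. Olig2 kept it in 5 of 12 limma fits without 1 library, with a highest p of 0.11 without standard control replicate 5. The myelin list had a median log2 fold change of -0.15 there with none of 15 tested genes at that p, and Sox8, a relative of Sox10, had -0.35. After ELS, defeat left C1ql1 at 203.3 ± 18.7 normalised reads against 170.9 ± 23.6 in ELS controls (0.26 ± 0.12, adjusted p = 0.294), 1 of 8 genes against 16.7% of all. Its unadjusted p, 0.048, was above 0.05 with quantile normalisation, edgeR and DESeq2 and in 7 of 12 fits without 1 library, up to 0.149 without ELS control replicate 4. With defeat, ELS against standard rearing gave 2 of 8 genes, against 8.44% of all. Gpr17 averaged 1345 ± 93 normalised reads with ELS and 1187 ± 114 without (0.18 ± 0.08), and Cspg4 834.4 ± 89.8 with ELS and 749.3 ± 75.3 without (0.15 ± 0.07). For Cspg4 the unadjusted p was 0.049, and it was 0.064 without the doubted libraries, 0.07 with edgeR, 0.065 with DESeq2 and 0.053 with quantile normalisation.

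In male NAc, defeat after ELS P2-12 was set against ELS P2-12 controls, and all 6 measured genes lay below 0. Of these, 3 had an unadjusted p under 0.05, against 7.71% of all genes in either direction and 4.27% in the lower one. The share of all genes below 0 at any p was not counted. Sox10 had 1641, 1709, 1664, 1483 and 1497 normalised reads in the defeated group and 1776, 1964, 1805 and 1876 in its controls (log2 fold change -0.22 ± 0.10, adjusted p = 0.64). These Sox10 levels did not overlap, but how many of all genes separate in this way was not counted. Olig1 had 3749, 3317, 3440, 3035 and 2965 normalised reads after defeat and 3683, 3831, 3924 and 3725 in controls (-0.20 ± 0.09). Olig2 had 943.2, 733.3, 852.2, 731.2 and 784.1 normalised reads after defeat and 908.1, 897.6, 933.5 and 884.6 in controls (-0.17 ± 0.08). The first defeated library lies among the controls for Olig1 and above all of them for Olig2. Leaving out 1 library left between 0 and 3 of these genes at an unadjusted p under 0.05. Sox10 kept it in 3 of 9 such limma fits, Olig2 in 4 and Olig1 in 5. The losses were largest without ELS P2-12 control replicate 2 for Sox10, defeat replicate 4 for Olig2 and defeat replicate 5 for Olig1, where the unadjusted p-values of limma were 0.108 for Sox10, 0.101 for Olig2 and 0.0848 for Olig1. With edgeR Sox10 and Olig2 lost it, with quantile normalisation Sox10 and Olig1, and with DESeq2 Olig2. Of 11 tested myelin genes 10 lay below 0 there (median -0.13, Mal -0.18, Mobp -0.19), and with the myelin mean as a covariate the 3 values were -0.12 for Sox10, -0.12 for Olig1 and -0.09 for Olig2, none at an unadjusted p under 0.05. Of 10 further precursor genes 2 had an unadjusted p under 0.05 (Cacng4 -0.24, Epn2 -0.10), as did 3 of 8 genes of newly formed oligodendrocytes (Sirt2 -0.17, Plekhb1 -0.17).

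Pdgfra in male NAc was lowest in undefeated mice with the later ELS window. It had 2061, 1970, 2018 and 2216 normalised reads in ELS P10-20 controls and 2255, 2334, 2346 and 2386 in standard controls, with no overlap. The log2 fold change was -0.17 ± 0.06 (unadjusted p = 0.0042, adjusted p = 0.482), 1 of 6 measured genes against 6.77% of all genes. Against ELS P2-12 controls, at 2289, 2121, 2471 and 2148 normalised reads, the value for ELS P10-20 controls was -0.13 ± 0.06, again 1 of 6 genes, where 7.64% of all genes had an unadjusted p under 0.05. The summed level of 6 fibroblast markers, cells that also make Pdgfra, ran from 1149 to 1373 normalised reads in ELS P10-20 controls and from 1191 to 2912 in standard controls, and its part in the result was not tested.

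In male VTA, Gpr17 differed for defeat after ELS against ELS controls. It had 9.66, 12.1 and 13.0 RPKM as lowest, median and highest in ELS defeat, and 15.3, 12.4, 16.2 and 12.5 RPKM in the 4 ELS control libraries. The log2 fold change was -0.23 ± 0.09 (adjusted p = 0.972), 1 of 8 genes against 4.57% of all genes. Without ELS control replicate 3 its unadjusted p was 0.12. Standard defeat averaged 11.4 ± 1.5 RPKM of Gpr17 and standard control 13.1 ± 1.0.

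In females, 4 member values had an unadjusted p under 0.05. In PFC, Sox10 had 688.7, 864.1 and 1266 normalised reads as lowest, median and highest in ELS STVS mice. It had 704.1, 734.2, 716.6, 613.1 and 842.6 in ELS controls (log2 fold change 0.32 ± 0.13, adjusted p = 0.999), 1 of 8 genes against 3.25% of all genes. Standard STVS mice had 655.2, 838.4, 730.2, 677.1 and 769.7 normalised reads of Sox10, and ELS STVS against these gave 0.30 ± 0.13, 1 of 8 genes against 10.6% of all. The ELS STVS libraries numbered 1, 2 and 6 were the high ones, at 973.1, 1266 and 1117, and they also had the highest summed myelin levels of their group, 84695, 144894 and 118574 normalised reads. All 16 myelin genes lay above 0 for STVS after ELS (median 0.43, Hapln2 0.51, Mobp 0.61), and with the myelin mean as a covariate Sox10 had 0.12 with an unadjusted p of 0.087.

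In female NAc, Pdgfra had 2000, 2139 and 2487 normalised reads as lowest, median and highest in ELS STVS mice and 1906, 1971, 2014, 1912 and 1788 in standard STVS mice (log2 fold change 0.18 ± 0.07, adjusted p = 0.346). It was 1 of 8 genes against 13.3% of all, and without the doubted libraries its unadjusted p was above 0.05. In female VTA, Olig1 had 6467, 6831 and 8970 normalised reads in ELS STVS mice and 8482, 8037, 7743, 7337 and 8122 in standard STVS mice (-0.14 ± 0.07, adjusted p = 0.927). It was 1 of 8 genes against 4.2% of all, and with the myelin mean as a covariate the value was -0.06. Without the doubted libraries it was -0.15 with an unadjusted p of 0.051, and the unadjusted p stayed under 0.05 in 3 of 11 fits without 1 library (up to 0.119 without ELS STVS replicate 3). C1ql1 varied most in female VTA, from 457.2 to 2077 normalised reads over its 22 libraries, a coefficient of variation of 32.9%, and none of its stress comparisons in that region had an unadjusted p under 0.05.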

How the data were processed

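Of the series, 163 RNA libraries were used, and its 16 chromatin samples and inputs were not. The values the authors deposited for male NAc, and for PFC, HIP and all female tissue, are gene counts scaled by a library factor (signal, here called normalised reads). Per the submitters' processing notes these came from HISAT and HTSeq on mm10, with no versions. The male VTA values the authors deposited are RPKM. For that set the submitters' processing notes list TopHat2, HTSeq, Bowtie2 2.2.0 and SAMtools 0.1.19 with mm9 and mm10, and do not say which served the RNA. Per the labels the kit was unstranded, so sense and antisense reads cannot be told apart. Whole reads could be recovered from 100% of the scaled values within 0.001. Each table was normalised on its own and tests stay inside a table. Among 328 same-group library pairs the lowest chi-square per gene was 2.96, so no library counted as a copy. In 10 female NAc libraries the adult condition label repeats the sex, and their titles gave the group.

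Models were fitted with limma 3.58.1 in R 4.3.3, using its trend and robust options, to log2(value + 1) with 1 coefficient per group. Tests covered the top 14000 genes by mean level (male VTA: 14586 genes averaging 0.5 RPKM or more) and p-values were adjusted by Benjamini-Hochberg. The scale understates changes of low genes. Whether groups overlap was looked at for the 8 genes only, so the share of all genes without overlap is not known. The design allowed for raw counts. Since the values are scaled, edgeR 4.0.16 and DESeq2 1.42.0 on recovered reads served as alternatives. Further alternatives were no filter, another pseudocount, quantile normalisation, a replicate block, a myelin covariate, and leaving out doubted libraries or each library in turn. The steps were tested on simulated data. Correlations and ratios used two-sided permutation tests. Doubt fell on male libraries above 200 normalised reads of Xist, on female ones above 50 of Ddx3y or below 0.5 of the median Xist, and on any above 10000 of Ttr. The text names the 8 members, the 2 genes of smallest p in each list described, the 5 genes most like the members and the label checks. Members, lists and tests were chosen with earlier results of these data known. The p-values measure spread between separate tissue samples, and region tests treat libraries as independent. No label ties regions to mice. Female standard STVS replicate 3 fell under the Xist cutoff in every region, though not to the same degree. Its PFC library held 166.0 and its NAc library 100.9 normalised reads of Xist, while its VTA library kept 6152. Same-numbered punches of a group may still share a mouse, which the main region tests and ratio permutations ignore. Across regions their deviations had a median r of 0.03 in females and 0.05 in males, against -0.003 for other numbers in both. A fit with a block for the number is described among the alternatives, and whether a mouse was shared is not known. The result of 1 list in male PFC is not reported here.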

Additional observations from a re-analysis of the deposited data

Results flagged for a closer look

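In groups of 4 to 10 libraries, 15 of 228 combinations of gene and group held a library far from the rest, where chance gives about 1 in 20. For each, the gap to the nearest library over the range of the group is given, with the level of the library and of its neighbour. Female PFC standard STVS replicate 5 stood out as the highest for C1ql1, at 234.1 against 192.1 normalised reads (gap share 0.781). Male HIP standard defeat replicate 1 lay apart as the lowest for C1ql1, at 166.8 against 229.9 normalised reads (gap share 0.627). Male PFC standard defeat replicate 4 was set off as the highest for C1ql1, at 311.1 against 181.4 normalised reads (gap share 0.888). Male HIP standard control replicate 4 stood out as the highest for Enpp6, at 222.6 against 117.7 normalised reads (gap share 0.732). Male HIP ELS defeat replicate 3 lay apart as the lowest for Gpr17, at 1282 against 1501 normalised reads (gap share 0.706). Male VTA ELS defeat replicate 2 was set off as the lowest for Gpr17, at 9.66 against 11.8 RPKM (gap share 0.651). Male PFC ELS defeat replicate 6 stood out as the highest for Olig1, at 2772 against 2319 normalised reads (gap share 0.638). Female NAc standard STVS replicate 4 lay apart as the lowest for Olig2, at 722.9 against 900.1 normalised reads (gap share 0.726). Male NAc ELS P10-20 defeat replicate 2 was set off as the highest for Olig2, at 878.5 against 781.2 normalised reads (gap share 0.768). Female NAc standard control replicate 2 stood out as the highest for Pdgfra, at 2570 against 2003 normalised reads (gap share 0.752). Female PFC standard control replicate 6 lay apart as the highest for Pdgfra, at 2259 against 1856 normalised reads (gap share 0.737). Female NAc standard control replicate 2 was set off as the highest for Sox10, at 2018 against 1528 normalised reads (gap share 0.718). Male HIP standard defeat replicate 3 stood out as the lowest for Sox10, at 566.5 against 750.9 normalised reads (gap share 0.638). Male PFC ELS control replicate 1 lay apart as the highest for Sox10, at 828.9 against 690.5 normalised reads (gap share 0.709). Male VTA standard control replicate 2 was set off as the highest for Sox10, at 40.9 against 34.5 RPKM (gap share 0.932).

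For C1ql1 in male HIP the interaction of rearing and defeat was 0.53 on the log2 scale, past the unadjusted threshold (limma, unadjusted p = 0.0022, adjusted p = 0.368). Defeat gave 0.14 after ELS and -0.39 after standard rearing. The value did not pass adjustment, and C1ql1 of standard defeat replicate 1, at 166.8 normalised reads, was the lowest of all 24 HIP libraries. Without each library in turn the interaction stayed between 0.44 and 0.62, with a highest unadjusted p of 0.0049.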

How the results depend on the processing

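The count of members past an adjusted p of 0.05 was computed in all 46 comparisons under each alternative that could be run. It stayed within 1.5 times the reported count in all of them, with 1 exception. With DESeq2 on recovered reads, 1 member (Olig1, adjusted p = 0.0499) and 162 genes passed for defeat after standard rearing in male HIP, where limma and edgeR passed 0 of either. There, leaving out 1 library kept Olig1, Olig2 and C1ql1 at an unadjusted p under 0.05 in 12 of 12 cases, Sox10 in 10 and Gpr17 in 4. Gpr17 in male PFC, defeat after standard rearing, kept it in 12 of 12, and Pdgfra in male NAc, ELS P10-20 alone, in 8 of 8. Of the 25 member values at an unadjusted p under 0.05 in stress comparisons, 9 kept it without any 1 library and 16 lost it without at least 1. By the other alternatives 5 of 64 named values lost or gained that side with DESeq2, 6 of 64 with edgeR, 8 of 65 with quantile normalisation, 0 of 65 with no filter or another pseudocount, 7 of 25 with the myelin covariate and 9 of 57 without doubted libraries. With the replicate block, no region value of a member changed its side of the threshold. Among all members 57 of 60 named values kept their side, and Olig2 in male HIP after defeat had -0.42 with and without it. The deviations of same-numbered libraries had a median r from 0.02 to 0.17 over the sets, against -0.037 to 0.002 for other numbers. The same-numbered median was the higher one in every set, though each set held pairs below 0.1. The main fits did not pair these numbers, and what such libraries share was not tested. No member value past an adjusted p changed sign under any alternative.

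The male VTA values keep no depth, and pooled punches hide the spread between mice there and in male NAc. Sex, cohort and adult stressor cannot be told apart. Enpp6 had a wide error in HIP (SE 0.37 on the log2 scale). A difference of the size seen for Olig1 was not detectable for Enpp6 there.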
